A study of Mus musculus with 3 samples.

Results

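T cell receptor genes were followed here through 3 sorted B cell lymphomas of the mouse, as the 176 genes that the count files type as T cell receptor V, D, J or C segments or their pseudogenes, out of 37646 listed genes. By symbol, 115 belong to the alpha locus (Tra), 45 to the beta locus (Trb), 6 to the delta locus (Trd) and 10 to the gamma locus (Trg). The members are 101 V, 2 D, 66 J and 7 C genes, and 16 of them are pseudogenes. All were found in GENCODE release M21, which holds 270 genes of these types. The other 94 are not among the genes that the count files type this way. Numbers of segments below therefore cover listed genes only.

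The libraries come from spleens of moribund C57BL/6 mice of the genotype p53F/F, Blimp1F/F, IKK2castopF/stopF, Cg1Cre/+, called pBIC, and stand for ABC-type diffuse large B cell lymphoma (DLBCL). All 3 carry both floxed alleles, the activatable IKK2 allele and Cre from the Ighg1 (C gamma 1) locus, so no library lacks any of these. Cells positive for B220, the B cell form of CD45, and for the GFP reporter were sorted, and polyadenylated RNA was read from one end over 50 nt. Control germinal centre B cells are named in the study's design and were not analysed here. Every value below belongs to 1 group, as mean ± SD over n = 3 tumours or tumour by tumour. The labels give each library an identifier without stating that each is a separate animal, so p-values measure only the spread between these samples, which may be technical. The tumours are called 1, 2 and 3 in the order of the sample list.

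A T cell receptor is a pair of chains, alpha with beta or gamma with delta, held at the surface by the CD3 proteins. Each chain gene is assembled in the thymus by the RAG recombinase, which joins a V segment to a J segment, with a D segment between them in the beta and delta chains, and splicing then adds the constant (C) gene. B cells use the same recombinase on immunoglobulin loci. Constant genes of unrearranged receptor loci are also known to be transcribed from promoters near the D and J segments, without a V gene, so counts on a C gene do not show that a chain was assembled.

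The constant genes took most of the counts,. Mouse has a pair of beta constant genes, Trbc1 and Trbc2, each with its own D and J cluster. The last 250 nt of their first coding exons are shown because their likeness decides how many reads can be told apart, and that of Trac, the alpha constant gene, because it had the most counts of all members. Capitals mark the base at which the beta exons differ.
Trbc1: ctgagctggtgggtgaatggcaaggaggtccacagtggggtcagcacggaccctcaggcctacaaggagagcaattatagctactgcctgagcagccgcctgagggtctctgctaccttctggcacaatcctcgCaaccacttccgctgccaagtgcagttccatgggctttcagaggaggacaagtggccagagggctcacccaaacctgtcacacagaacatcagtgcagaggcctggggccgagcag
Trbc2: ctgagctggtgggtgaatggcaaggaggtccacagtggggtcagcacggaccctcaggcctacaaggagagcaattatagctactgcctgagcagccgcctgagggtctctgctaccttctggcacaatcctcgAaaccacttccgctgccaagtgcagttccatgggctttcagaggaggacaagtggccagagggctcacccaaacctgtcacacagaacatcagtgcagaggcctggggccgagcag
Trac: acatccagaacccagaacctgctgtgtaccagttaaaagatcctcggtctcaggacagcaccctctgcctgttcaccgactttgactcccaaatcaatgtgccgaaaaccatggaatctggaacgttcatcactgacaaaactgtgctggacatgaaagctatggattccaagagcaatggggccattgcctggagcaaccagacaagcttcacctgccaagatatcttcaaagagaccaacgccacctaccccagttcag
The sequences come from the GENCODE M21 transcripts (GRCm38, forward strand) and lie at chr6:41538343-41538592 for Trbc1, chr6:41546855-41547104 for Trbc2 and chr14:54220521-54220781, the whole first coding exon, for Trac. The whole beta exons are 375 nt long and differed at 1 position, C260A, counted from 1 at the exon's 5′ end with the base of Trbc1 first, an identity of 99.73%. Of the 326 windows of 50 nt within that exon, 50 (15.3%) were found in no other annotated gene. In the rest of the transcript, 98.1% of windows of Trbc1 and 97.8% of those of Trbc2 were found in no other gene. All 886 windows of Trac were found in no other gene.

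Reads on T cell receptor genes were rare in every tumour. They summed to 153, 208 and 196 counts in tumours 1, 2 and 3 (95% Poisson intervals of 130.0 to 179, 181 to 238 and 170.0 to 225), out of 15022902 to 15141009 counts per library. In CPM, counts scaled to a common library size with trimmed-mean (TMM) factors, this was 9.91, 14.5 and 12.8, or 12.4 ± 2.31. The intervals of tumours 1 and 2 did not overlap, and that of tumour 3 overlapped both. Immunoglobulin genes of the same libraries had 1210, 945 and 1190 counts for each T cell receptor count. Intervals cover counting error only, since the reads carry no molecular identifiers. In sorted bulk samples, fewer cells of a type and less RNA per cell cannot be told apart.

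The counts divided between the alpha and beta loci. Tra held 52.2% ± 2.57 of T cell receptor counts, with 76, 114 and 102 counts in tumours 1, 2 and 3. Trb held 45.3% ± 2.36, with 70, 89 and 93 counts. The intervals of Tra and Trb overlapped in every tumour, by least in tumour 2, where Tra held 54.8% (47.8 to 61.7% at 95%, Clopper-Pearson) and Trb 42.8% (36.0 to 49.8%). Dividing each count by exon length turned the order, to 38.9% for Tra and 59.3% for Trb. This division gives much weight to short D and J segments. A single count on Trbd1, of 12 nt, made the whole D share of 6.38%. Trd had 2, 3 and 0 counts and Trg had 5, 2 and 1.

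Trac, the constant region of the alpha chain (ENSMUSG00000076928.5, chromosome 14, 54220521 to 54224206, forward strand), led in every tumour. It had 59, 108 and 94 counts in tumours 1, 2 and 3, with 95% Poisson intervals of 44.9 to 76.1, 88.6 to 130.0 and 76.0 to 115. Tumour 1 was lowest, and its interval ended below that of tumour 2 and just reached that of tumour 3. As CPM the level was 5.83 ± 1.87, a 1.97-fold range.

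The beta constant genes were lower and close to each other. Trbc1 (ENSMUSG00000076490.6, chromosome 6, 41538218 to 41539881) had 20, 27 and 39 counts in tumours 1, 2 and 3, or 1.91 ± 0.628 CPM. Trbc2 (ENSMUSG00000076498.2, chromosome 6, 41546730 to 41548352) had 21, 30 and 33 counts, or 1.87 ± 0.441 CPM. Both were lowest in tumour 1 and highest in tumour 3, with overlapping Poisson intervals between all tumours.

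**Figure D1:**
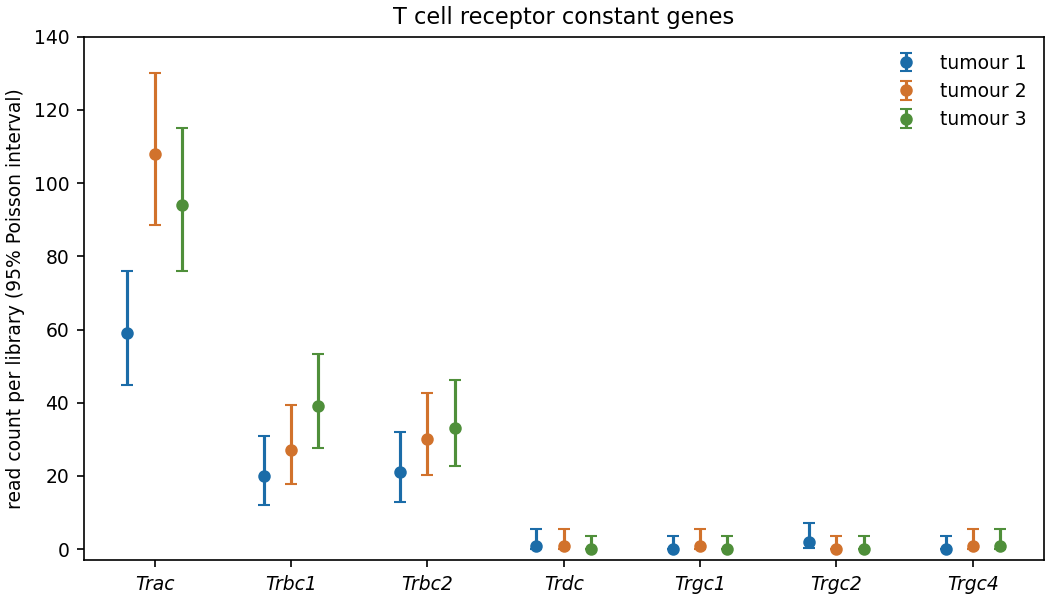
Read counts of the 7 T cell receptor constant genes (vertical axis, counts per library) in tumours 1, 2 and 3 (colours), with 95% Poisson intervals as bars. Trac stands highest at 59 to 108 counts, Trbc1 and Trbc2 lie between 20 and 39, and the delta and gamma genes have at most 2 counts.

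Only these 3 members passed the filter on low counts of the edgeR test, filterByExpr. This test compares the spread of a gene between tumours with that of genes of like abundance. Of the 3 members 0 passed the adjusted threshold of 0.05, beside 16 of all 11478 genes tested (0.139%). By edgeR the adjusted p was 0.997 for each of Trac, Trbc1 and Trbc2, the unadjusted p was 0.598, 0.552 and 0.715, and 0 of the 3 lay under 0.05 unadjusted. Without the filter 55 members were tested and 0 passed, beside 0.655% of 25500 genes; 1 member, Trav13n-4, had an unadjusted edgeR p of 0.04 and an adjusted p of 0.851. Without tumour 3 the members again gave 0, beside 0.0931% of genes, and with every other setting tried both the members and all genes gave 0, except that DESeq2 size factors gave 0 members and 16 genes. A p that misses the threshold does not show that the tumours were equal.

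Per length, Trac lay above each beta gene. In TPM, the length-normalised level from union exon lengths, Trac had 13.3, 22.0 and 19.8 in tumours 1, 2 and 3, while Trbc1 had 5.64, 6.85 and 10.3 and Trbc2 had 6.41, 8.24 and 9.41. The difference Trbc2 minus Trac was -0.95, -1.31 and -1.0 in log2(TPM + 1), with a mean of -1.09 ± 0.20, lower in 3 of 3 tumours (two-sided exact sign-flip p = 0.25, the smallest 3 tumours can give, 0.375 by Benjamini-Hochberg over 3 differences). The difference Trbc2 minus Trbc1 was 0.09 ± 0.18 in log2(TPM + 1), smaller than its own spread (exact sign-flip p = 0.5, adjusted 0.5).

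Counting only windows that a read can place turned the order of Trac and the beta sum. Per 100 windows of 50 nt found in no other gene, Trac had 6.66, 12.2 and 10.6 counts, and Trbc1 and Trbc2 together had 10.7, 14.8 and 18.6. The beta sum was then higher in all tumours. In TPM it was 12.1, 15.1 and 19.7, against 13.3, 22.0 and 19.8 for Trac. The TPM values were nearly equal in tumour 3, and no interval was computed for them. With unique windows as divisor, the difference Trbc2 minus Trac shrank to -0.30 on the log2 scale. This divisor was chosen after seeing the data. Whether reads with several matches were discarded is not given in the sources used here, and its part in the order of the loci was not tested.

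The delta and gamma constant genes were at the limit of detection. Trdc, the constant region of the delta chain, had 1, 1 and 0 counts, and the ratio of Trac to Trdc over all tumours was 261 counts to 2, or 130.5 (95% interval of the ratio 35.8 to 1080). Per length the difference Trac minus Trdc was 4.20 ± 0.38 in log2(TPM + 1), higher in 3 of 3 tumours (exact sign-flip p = 0.25, adjusted 0.375), and its size depends on the pseudocount, with 7.10 for a pseudocount of 0.1. Trgc1, Trgc2 and Trgc4, constant genes of the gamma chain, had 0, 1 and 0, then 2, 0 and 0, then 0, 1 and 1 counts in tumours 1, 2 and 3. The limit set for a count of 0 is 3 counts, a one-sided bound below the 3.69 at which the two-sided 95% Poisson interval of Trdc in tumour 3 ends, or 0.194, 0.209 and 0.196 CPM in tumours 1, 2 and 3. For delta and gamma the mean CPM of the locus shifted with the libraries used. Trd was 0.113 CPM over all tumours, and 0.104, 0.0648 and 0.169 without tumour 1, 2 or 3. Trg was 0.176 CPM over all tumours, and 0.102, 0.195 and 0.232 without tumour 1, 2 or 3.

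V genes, which encode most of the antigen-binding domain, held 18.8% ± 8.16 of T cell receptor counts. The share lay between 20.6 and 35.2% in tumour 1 (95% exact binomial interval around 27.5%), 12.8 and 23.7% in tumour 2 (around 17.8%) and 7.17 and 16.5% in tumour 3 (around 11.2%). The intervals of tumours 1 and 3 did not overlap. In counts the V genes had 42, 37 and 22, while the C genes had 103, 168 and 167, so tumour 1 had the most V counts and the fewest C counts.

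The beta locus carried most V counts, although the alpha locus has more listed V genes. M21 holds 94 receptor genes that are not listed, and their part in the V counts of each locus was not tested. The 27 Trbv genes had 24, 30 and 17 counts in tumours 1, 2 and 3, and the 65 Trav genes had 14, 5 and 5. Among V and C counts of a locus, V genes made up 36.9%, 34.5% and 19.1% for Trb and 19.2%, 4.42% and 5.05% for Tra. Trb stood above Tra in 3 of 3 tumours, and the 95% intervals did not overlap in tumour 2 (24.6 to 45.4% against 1.45 to 10.0%) and tumour 3 (11.5 to 28.8% against 1.66 to 11.4%). They overlapped in tumour 1. The Tra mean of 9.55% fell to 4.74% without tumour 1. The beta constant genes have 59.5% and 56.0% of their windows to themselves, and the part of this in the V share of Trb was not tested.

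At the immunoglobulin loci of the same libraries, V genes made up 5.25% ± 0.76 of V and C counts at the heavy-chain locus, 17.9% ± 0.86 at the kappa locus and 0.254% ± 0.166 at the lambda locus. The lambda mean fell to 0.158% without tumour 1. The share at Trb, 30.2% ± 9.66, was above that of each immunoglobulin locus in 3 of 3 tumours. In tumour 3 its interval of 11.5 to 28.8% held the kappa value of 18.6%. Shares of counts are not corrected for gene length.

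**Figure D2:**
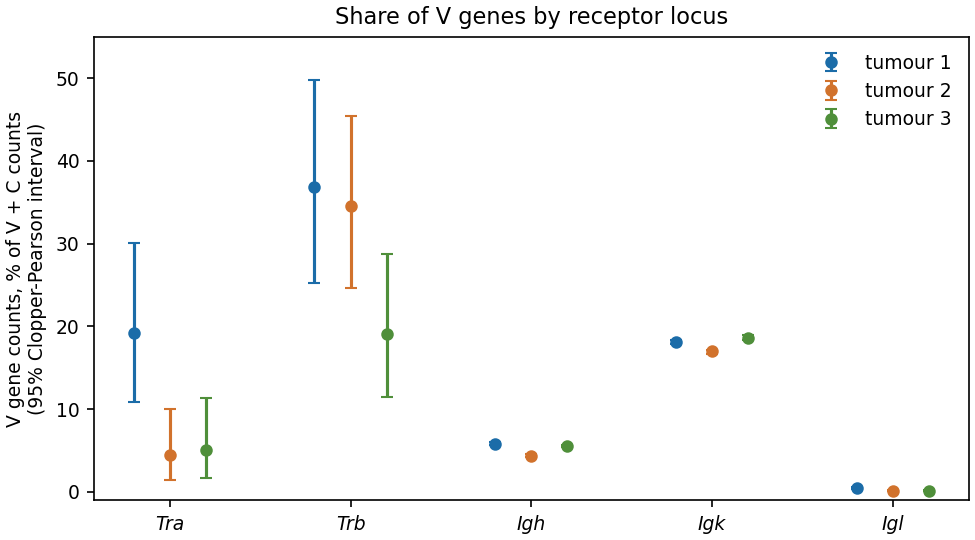
Share of V gene counts among V and C counts (vertical axis, percent) at 2 T cell receptor and 3 immunoglobulin loci in tumours 1, 2 and 3 (colours), with 95% Clopper-Pearson intervals. Trb lies between 19.1 and 36.9%, Tra between 4.42 and 19.2%, and the immunoglobulin loci show narrow intervals.

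No single Trbv gene held most of the beta V counts. Of the 27 Trbv genes, 10, 14 and 11 had a count in tumours 1, 2 and 3, and 7 had at least 1 in every tumour. These were Trbv2, Trbv3, Trbv12-2, Trbv13-2, Trbv17, Trbv19 and Trbv29, named after their values were seen. The leading gene was Trbv3 in tumours 1 and 2, with 37.5% (18.8 to 59.4%) and 16.7% (5.64 to 34.7%) of Trbv counts, while in tumour 3 Trbv12-1, Trbv12-2 and Trbv13-3 tied at 3 counts, 17.6% each (3.8 to 43.4%). The inverse Simpson index, the effective number of genes, was 4.80, 11.0 and 8.26. These values rest on 17 to 30 counts per tumour.

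Trbv3 (chromosome 6, 41048290 to 41048828) was the single V gene with at least 10 counts in all. It had 9, 5 and 1 counts in tumours 1, 2 and 3, with Poisson intervals that overlapped between tumours 1 and 3. Trbv2, its neighbour (chromosome 6, 41047340 to 41047995), had 5, 3 and 1. Both were highest in tumour 1 and lowest in tumour 3. Trbc1 and Trbc2, in contrast, were lowest in tumour 1.

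Alpha V genes gave isolated counts. Of 65 Trav genes 51 had no count in any tumour and 0 had a count in every tumour. Trav13n-4 (chromosome 14, 53362267 to 53364106) had 7, 0 and 0 counts, so 50% of the Trav counts of tumour 1 lay on a gene that was silent at this depth in the other tumours. It was named after its values were seen. Each of the other Trav genes had at most 2 counts over all tumours.

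Among the small families, the delta V gene Trdv1 had 1, 2 and 0 counts and the gamma V gene Trgv2 had 3, 0 and 0, both named after their values were seen. The other 3 Trdv and 4 Trgv genes had no count.

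**Figure D3:**
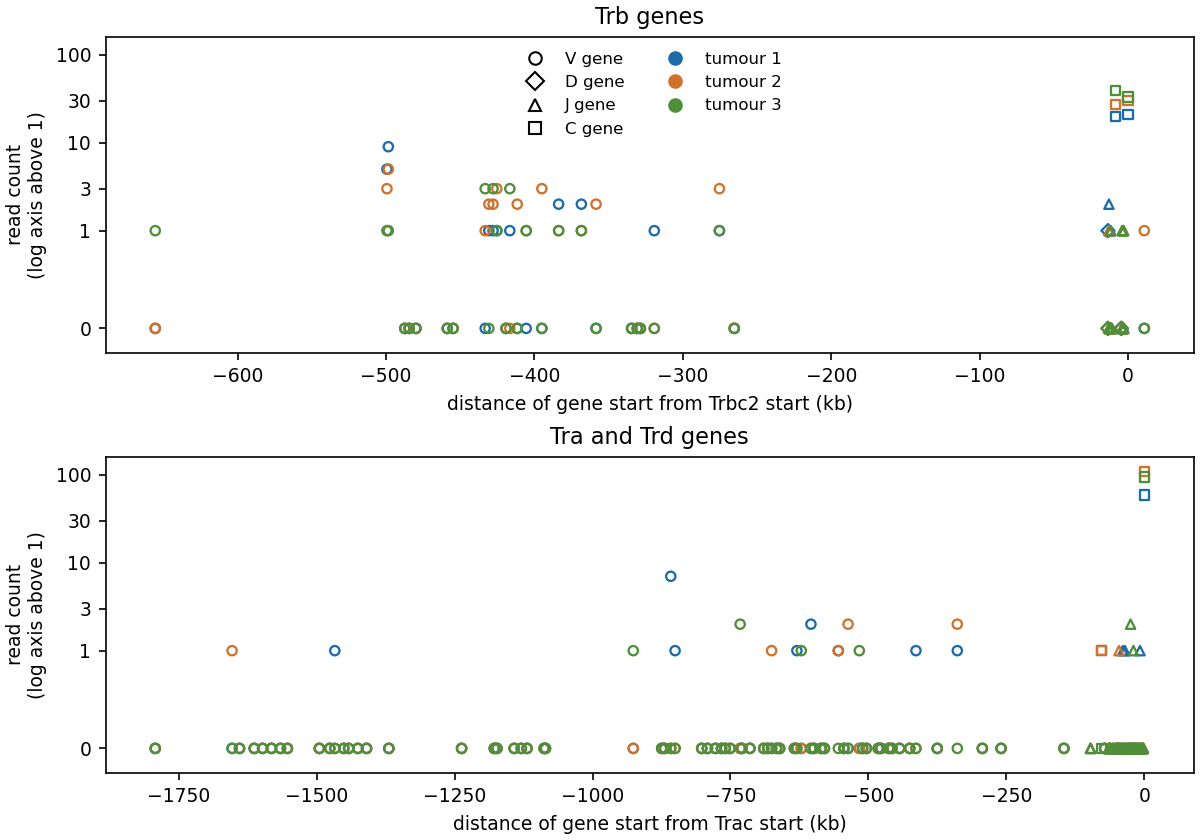
Read counts (vertical axis, logarithmic above 1) of each listed gene of the Trb locus (top) and of the Tra and Trd loci (bottom) against the distance of its start from the start of Trbc2 or Trac (horizontal axis, kb). Colours are tumours and shapes are segment classes; Trac, Trbc1 and Trbc2 stand above all others, and most V genes of the alpha locus lie at 0.

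D and J segments are short, and few reads could fall on them. The 66 J genes measure 29 to 66 nt and had 7, 3 and 7 counts in tumours 1, 2 and 3, a share of 3.20% ± 1.6. Of these genes 14 had a count in some tumour and 0 in every tumour, and none exceeded 2 counts in a tumour. Trbd1, a D segment of 12 nt, had 1 count in tumour 1, and Trbd2, of 14 nt, had none. The J share depended on the divisor, at 26.9% after division by exon length. A read that spans a J to C junction touches more than 1 gene, and how such reads were counted is not given in the sources used here.

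Across all members, 170 of 176 had at most 3 counts in every tumour. The other 6 were Trac, Trbc1, Trbc2, Trbv3, Trbv2 and Trav13n-4. At least 1 count in some tumour was found for 55 members (31.2%), against 67.7% of all listed genes, and at least 1 in every tumour for 10 members (5.68%), against 45.6%. The median of the mean CPM was 0 over members and 0.0882 over all listed genes. The members are short, with a median exon length of 340.5 nt against 2033.5 nt over all listed genes.

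V genes of the T cell receptor loci had 2.58 counts per kb of exon over the 3 libraries. Olfactory receptor genes, which serve the nose and were chosen as a family presumed silent after the values were seen, had 0.311 counts per kb. V genes of the immunoglobulin loci had 570.0. Per gene the first order turned, with 1.22 counts for olfactory receptor genes and 1.0 for T cell receptor V genes. Their median exon lengths were 3692.5 and 379 nt. Other genes inside the loci were nearly silent. Of 10 listed genes of other types within the Tra and Trd span 1 had a count, and so did 1 of 10 within the Trb span, the trypsinogen genes Try4, Try5 and Prss2 being at 0 in all tumours.

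How far a 50-nt read can be placed differed between loci. Of 65 Trav genes, which exist partly in duplicated blocks, 22 had fewer than 50% of their windows to themselves, down to 2.24% for Trav6d-3, and 6 had all of them. Of 27 Trbv genes 21 had all windows to themselves and 2 had fewer than 50%. The lowest of these, Trbv5, at 22.6%, overlaps the noncoding gene 5830405F06Rik on the same strand. Its part in the low Trav counts was not tested. The gamma constant genes Trgc1 and Trgc2 had 65.8% and 74.6% of windows to themselves.

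**Figure D4:**
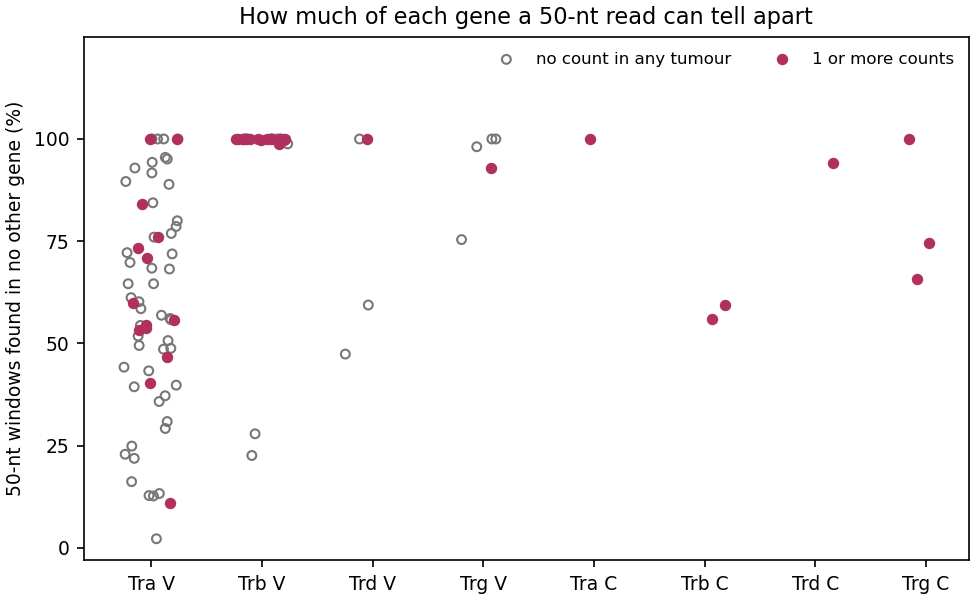
Percent of the 50-nt windows of each T cell receptor V or C gene that occur in no other gene of the GENCODE M21 transcripts (vertical axis), by locus and segment class. Filled points are genes with at least 1 count; alpha V genes spread from 2.24 to 100%, while 21 of 27 beta V genes lie at 100%.

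Genes of T cells were read beside the receptor genes, from lists chosen for their known roles. Over all 37646 listed genes 10816 reached 1 CPM in every tumour, the background for each such count below. Of 5 receptor partners 2 reached 1 CPM in every tumour, and the list summed to 7.77, 12.9 and 16.2 CPM in tumours 1, 2 and 3, lowest in tumour 1. The CD3 genes encode the signalling subunits that carry the receptor to the surface. Cd3e had 25, 32 and 26 counts, Cd3d had 15, 28 and 25, Cd3g had 61, 106 and 186, and Cd247, the zeta chain, had 19, 19 and 8.

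The CD3 genes did not share one ratio to Trac, and no interval was computed for these ratios. Per length, Cd3d stood at 0.131, 0.134 and 0.137 of Trac in TPM, from 15 to 28 counts of Cd3d per tumour. Cd3e stood at 0.0971, 0.0679 and 0.0634 of Trac, and Cd3g at 0.296, 0.281 and 0.566. Cd247 had 0.753, 0.678 and 0.296 TPM, highest in tumour 1, where Trac was lowest. Ptcra, the surrogate alpha chain of immature thymocytes, had 0, 1 and 3 counts.

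Surface and signalling genes of T cells were present at mixed levels. Of 16 genes 12 reached 1 CPM in every tumour, against 10816 of all 37646 genes, and their sum was 176, 115 and 181 CPM. Much of it came from Cd8b1 at 24.7, 18.8 and 55.2 CPM, Cd2 at 72.4, 31.0 and 27.6 CPM and Cd6 at 21.1, 23.2 and 49.8 CPM. Cd2 was highest in tumour 1, Cd8b1 and Cd6 in tumour 3, and neither Cd8b1 (edgeR adjusted p = 0.728) nor Cd2 (0.746) passed the variability test. B cells of the mouse also express Cd2, and subsets of them Cd5. The genes of the list did not share one order of the tumours. Thy1, a marker of mouse T cells, had 2.53, 7.03 and 4.71 CPM, highest in tumour 2. Lck, a receptor-proximal kinase gene, had 31.2, 11.8 and 9.41 CPM and Cd5 had 5.12, 2.85 and 2.75 CPM, both highest in tumour 1. The coreceptor genes Cd4, at 4.60, 1.74 and 10.3 CPM, and Cd8a, at 2.20, 5.91 and 7.91 CPM, were highest in tumour 3.

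Lineage factors of T cells were scarce. Of 4 genes 0 reached 1 CPM throughout, against 10816 of all 37646 genes, and they summed to 4.15, 1.74 and 7.32 CPM. Tcf7 led in every tumour, with 37, 11 and 90 counts, or 2.4, 0.765 and 5.88 CPM. Bcl11b, needed for T cell commitment, had 15, 10 and 15 counts, and Gata3 had 3, 3 and 0. In the list of gamma delta and innate-like T cells 1 of 5 genes reached 1 CPM, the kinase gene Blk at 287 ± 38.4 CPM, which B cells express too. Sox13, Zbtb16 and Cd163l1 had at most 5 counts in a tumour. Of 9 natural killer and cytotoxic genes 4 reached 1 CPM, and their sum of 25.3, 41.0 and 11.4 CPM was highest in tumour 2.

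Whether T cells within the gate supplied the receptor counts was not tested. B cell genes had a median of 408 CPM over 9 genes. The lowest of them, Ebf1, an early B cell transcription factor gene, had 13.9, 4.87 and 2.29 CPM in tumours 1, 2 and 3. Per length it had 4.66, 1.36 and 0.708 TPM, below Trac at 13.3, 22.0 and 19.8 TPM in every tumour. Cd79a, a signalling chain of the B cell receptor, had 62.1, 14.9 and 17.0 times the TPM of Trac. This ratio was highest in tumour 1, where Trac was lowest and the summed level of the B cell list, at 4630, 2820 and 2770 CPM, was highest. Single genes of the list departed from this, with Cd22 at 647, 321 and 661 CPM and Blnk at 506, 521 and 487 CPM.

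**Figure D5:**
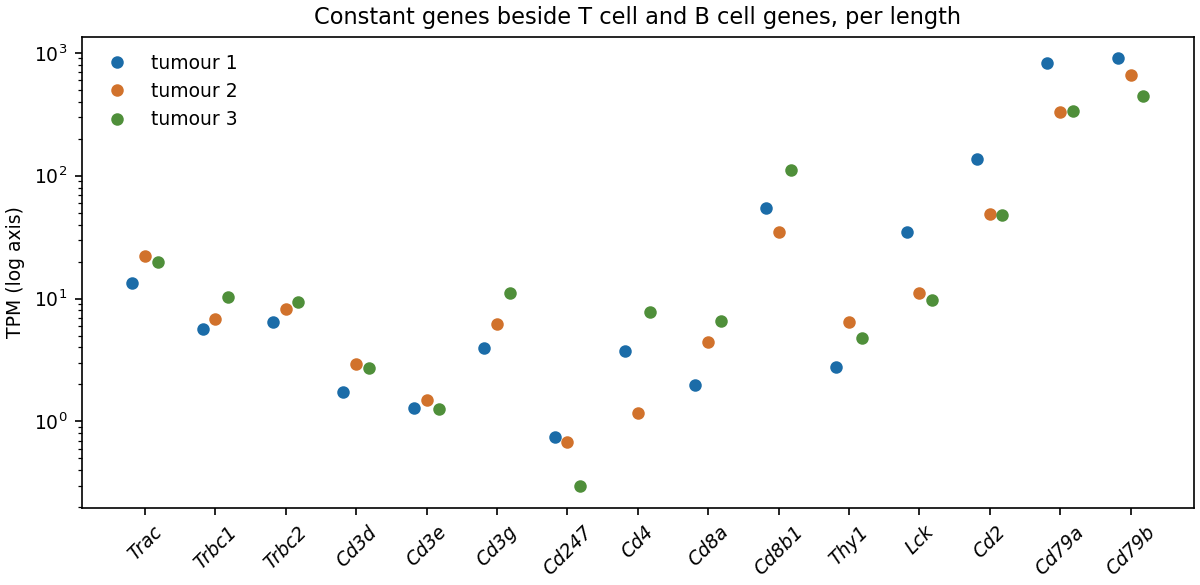
TPM (vertical axis, logarithmic) of Trac, Trbc1 and Trbc2 beside genes of T cells and B cells in tumours 1, 2 and 3 (colours, 1 point per tumour). Trac lies at 13.3 to 22.0 TPM, the CD3 genes Cd3d and Cd3e below it, and Cd79a and Cd79b far above.

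The recombinase that assembles receptor genes was not detectable at this depth. Rag1 and Rag2 had 0 counts in every tumour, and Dntt, which adds bases at the joints, had 0, 0 and 1. The repair genes that close the joints are general to all cells. Of the 10 genes of the list 7 reached 1 CPM in every tumour, against 10816 of all 37646 genes. They were led by Xrcc5 at 90.6 ± 23.9 CPM, Xrcc6 at 86.6 ± 34.9 CPM and Prkdc at 82.6 ± 44.0 CPM. Among early B cell genes 0 of 3 reached 1 CPM throughout, Igll1 being at 0 and Vpreb3 at 1.65 ± 0.863 CPM.

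Transcription factors known to bind receptor enhancers or promoters were all present. Each of 10 reached 1 CPM throughout, against 10816 of all 37646 genes, and their median was 96.7 CPM. Ikzf1 (Ikaros) had 589 ± 232 CPM, Tcf3 (E2A) 349 ± 78.5 CPM, Runx3 136 ± 42.6 CPM and Ets1 93.6 ± 31.2 CPM. These factors act at many genes of B cells as well.

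Of 8 measured neighbours of the loci 3 reached 1 CPM in every tumour, against 10816 of all 37646 genes. Dad1, a subunit of the oligosaccharyltransferase, lies beyond Trac on the reverse strand (chromosome 14, 54235479 to 54254104), with its 3′ end 11.3 kb from the end of Trac. It had 118, 195 and 155 CPM in tumours 1, 2 and 3, or 156 ± 38.4 CPM, lowest in tumour 1 and highest in tumour 2. Abhd4 had 14.3, 11.5 and 11.7 CPM, highest in tumour 1, and Stard3nl, near the gamma locus, had 20.8, 27.6 and 21.4 CPM, highest in tumour 2. For Dad1, Abhd4 and Stard3nl edgeR gave an adjusted p of 0.997.

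Genes of other blood cells were read beside them. The myeloid list summed to 194, 200 and 150 CPM and the erythroid list to 4.79, 17.6 and 108 CPM, the latter highest in tumour 3. In these lists Hbb-bs, a beta globin gene, and Lyz2, lysozyme of myeloid cells, passed the edgeR variability test, with adjusted p of 0.0234 and 0.0372. Both calls were lost with upper-quartile factors, total counts, a mean count of at least 10 or a prior variance that was not robust, where 0 genes passed, and also without tumour 1 or without tumour 2. Their part in the receptor counts was not tested.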

How the data were processed

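Per the labels, RNA of sorted splenic lymphoma cells from 3 pBIC libraries was enriched for polyadenylated molecules and sequenced as single reads. The authors deposited gene-level read counts with no normalization; the submitters' processing notes name FastQC, STAR 2.5.2b, featureCounts 1.6.0 and mm10, while their settings, the use of strand and the annotation release are not stated in those sources. Without strand, reads of overlapping antisense genes cannot be told apart. Gm43434 and Gm30275, which overlap delta genes, had 0 counts. The members Trdc, with 1, 1 and 0 counts in tumours 1, 2 and 3, and Trdv5, with none, overlap each other on opposite strands. The members and lists were chosen with earlier results of these data known.

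Library totals were 15141009, 15022902 and 15074513 counts. CPM used TMM factors of edgeR 4.0.16 (R 4.3.3) from the 11478 genes passing filterByExpr, and TPM used union exon lengths of GENCODE M21, matched by gene ID without version. Windows of 50 nt were cut from M21 transcripts and looked up on both strands. With 1 group there is no contrast. An intercept-only edgeR quasi-likelihood fit compared residual deviance with the prior variance (F test, one-sided, Benjamini-Hochberg, threshold 0.05). It was tried on simulated data in which only genes with a mean of at least 50 counts were changed. Trbc1 and Trbc2 lie below that, and no result of the trial is reported here. Poisson and Clopper-Pearson intervals are at 95%; differences between constant genes used exact sign-flip tests (scipy 1.17.1). Named were all constant genes, other members with at least 10 counts summed (Trbv3) and any past the threshold (0). Alternatives changed scaling (DESeq2 1.42.0 factors among them), filters, pseudocount, length division and libraries; division by unique windows was added after seeing the data. Some genes of the lists are not reported here.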

Additional observations from a re-analysis of the deposited data

How the results depend on the processing

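Of 144 recomputed values, 124 kept their call or changed within a tolerance, 19 moved and 1 turned its direction. The tolerance was the spread, or 1.5-fold for counts of genes. The 3 tested constant genes stayed above the threshold under every setting, with edgeR adjusted p from 0.912 to 0.997. Over all genes the count of 16 became 0 with upper-quartile factors, total counts, a mean count of at least 10 or a prior variance that was not robust, and 167 with no filter; leaving out 1 tumour gave 0 to 11. Division by exon length moved the D share to 6.38%, J to 26.9%, C to 45.5%, Tra to 38.9% and Trb to 59.3%; division by unique windows moved J to 62.4%, C to 26.0%, Tra to 31.8% and Trb to 67.3%. Both divisors give short J segments more weight by construction, and the D share of 6.38% rests on 1 count. The 10 genes with a count in every tumour became 55 with a count in any, 3 at 3 counts in every tumour and 3 at 10. Without division by length Trbc2 minus Trbc1 was -0.01, the cause of the turn being the length term itself. Depth limits the members: 170 of 176 had at most 3 counts in every tumour. No contrast between groups, paired or unpaired, was possible because the labels give 1 group.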
